A study of Mus musculus with 31 samples.

Results

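Skipping of an exon of Ahi1 was followed in the cortex of mouse models of Huntington's disease (HD) by RASL-seq, a targeted assay in which probe pairs are ligated across known splice junctions and counted. All events with the gene symbol Ahi1 were taken, together with any event of its binding partner Hap1. A single cassette exon event of Ahi1 was found among 1922 distinct events, and it was listed in all 3 file sets of the series. Hap1 had 0 listed events. Ahi1 was selected with its changes in these mice known, so its differences between mutant and wild-type (WT) mice are given as a description without a test.

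The 31 untreated mice, 1 library each from the cortex of 1 hemisphere, formed 8 groups. R6/2 HD mice (n = 3) carry a transgene of the first exon of mutant human huntingtin, driven by the human promoter, in addition to both normal mouse alleles, and were compared with 3 R6/2 WT mice at 3 months of age. Knock-in mice carry the expanded repeat in the mouse huntingtin gene itself, under its own promoter. Q150 HET mice (n = 4, 150 and 7 glutamines) and Q150 HOMO mice (n = 4, 150 glutamines on both alleles) were 7 months old. Q175 HET mice (n = 4, 175 and 7 glutamines) and Q175 HOMO mice (n = 3, 175 glutamines on both alleles) were 18 months old. The 10 knock-in WT mice, with 7 glutamines on both alleles, fell into 5 Q150 WT and 5 Q175 WT mice by which events their files list. Line, age and repeat length therefore cannot be told apart between the models.

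Ahi1 encodes jouberin (Abelson helper integration site 1), a WD40-repeat protein of the base of the primary cilium that also acts in vesicle trafficking and in Wnt signalling through beta-catenin. Loss of AHI1 causes Joubert syndrome, a disorder of hindbrain and axon tract development. In neurons jouberin forms a stable complex with Hap1, huntingtin-associated protein 1, which was identified as a partner that binds huntingtin more tightly when the glutamine repeat is expanded. Hap1 links cargo to dynein, dynactin and kinesin motors.

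The exon was identified by the length between its flanking exons, since the positions in the files were not those of mm10, the build named in the submitters' processing notes. Of 1801 cassette events whose gene is in GENCODE, 257 lay inside that gene at the deposited position. In contrast, the deposited span equalled, after a constant shift of 1 base, the length of an annotated exon skip of the named gene for 1764 events, against at most 10 events for any other shift of up to 10 bases. The Ahi1 span equalled that of exactly 1 annotated exon, chr10:21070288-21070543 on the plus strand of GRCm38. It is 256 nt long and lies within Ahi1 (chr10:20952547-21080429), between the exons at chr10:21058153-21058250 and chr10:21072543-21072601.

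The exon is annotated in 1 of 7 GENCODE transcripts of Ahi1, a transcript marked for nonsense-mediated decay, the pathway that degrades RNAs with an early stop codon. The reading frame runs on for 12 codons into the exon and then meets a TGA stop codon, 379 nt before the last exon junction of that transcript. The coding transcript skips the exon and encodes 1047 residues. With the exon kept, the last 54 of these are replaced by the 12 residues read from it. RefSeq lists the exon in transcript models without a coding region only, in the same form and in a shorter form of 42 nt with the same start, which also holds the stop codon. The deposited span does not separate these forms. The short count is thus that of the junction in the coding transcript, and the long count that of a junction of the transcript with the early stop; the list of probe pairs was not used here, so the side of the exon that the long probes join was not determined.

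A skipped and a kept junction are shown because they mark the 2 forms of the RNA that the counts compare; the kept junction is that on the upstream side, which may not be the side the long probes join (GRCm38 genome, plus strand, 5′ to 3′). The first has the last 30 nt of the exon before in lower case and the first 30 nt of the exon after in capitals. The second runs from the same 30 nt into the cassette exon, with the stop codon in capitals. The third is the 3′ splice site of the cassette exon, chr10:21070248-21070307, with 40 nt of intron and 20 nt of exon and the invariant AG in capitals.
skipped junction: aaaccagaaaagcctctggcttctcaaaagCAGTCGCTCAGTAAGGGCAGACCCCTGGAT
kept junction: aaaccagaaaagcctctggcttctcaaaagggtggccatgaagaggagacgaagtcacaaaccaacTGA
splice acceptor: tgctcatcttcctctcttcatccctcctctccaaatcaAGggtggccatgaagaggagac

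**Figure D1:**
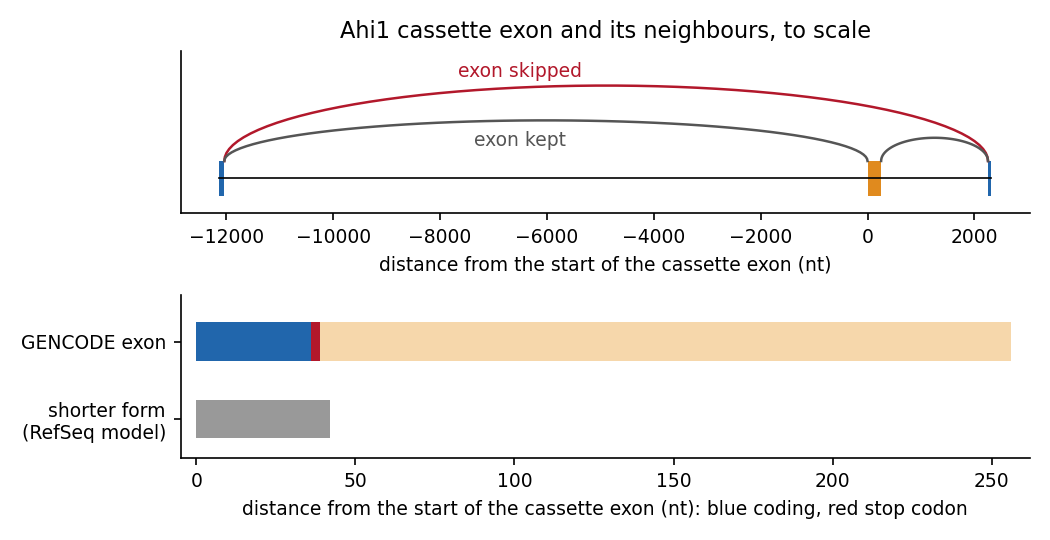
Ahi1 cassette exon and neighbouring exons, plotted by distance in nt from the start of the cassette exon; the upper panel is to scale with arcs for the skipped and kept junctions, and the lower panel enlarges the exon. The stop codon (red) follows 36 nt of coding sequence (blue) and lies inside both the 256 nt and the 42 nt form.

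The 250 nt on each side of the exon were searched on the strand of the gene for TGTGTGT (the kind of repeat bound by TDP-43 in RNA) and for TGCATG (the motif of Rbfox proteins). TGTGTGT had 0 matches on either side, and 9.23% of 1473 exons matched in the same way had it in the 250 nt before and 9.78% in the 250 nt after. TGCATG was found 1 time before the exon, as it was at least once for 12.1% of the exons, and 0 times after it, where 15.7% of the exons had it. A match is a description of the letters and not a binding site.

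Library totals were 2171709 to 4337557 counts in the R6/2 set, 2970207 to 5219877 in the Q150 set and 3351064 to 5256516 in the Q175 set. No 2 mice of a group had identical counts. The sum of short and long counts behind the Ahi1 event was 1109 to 3209 per mouse (median 1529). The 95% Wilson interval of the exclusion in a single mouse was 3.21 to 5.71 percentage points wide; it covers counting error only, since copies made by PCR were not marked.

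Exclusion is the percentage of all counts of the event that come from the short junction. It was higher in every mutant group than in its own WT mice. In R6/2 WT mice it was 31.7%, 35.4% and 29.1% (mean 32.0% ± 3.17, SD, n = 3). In R6/2 HD mice it was 69.5%, 70.1% and 68.8% (mean 69.4% ± 0.656, SD, n = 3). The groups did not overlap. The 2 junctions are read by different probes, so a share of counts is not the share of transcripts.

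In Q150 WT mice exclusion was 37.5%, 41.8%, 31.3%, 31.4% and 37.1% (mean 35.8% ± 4.47, SD, n = 5). In Q150 HET mice it was 53.2%, 48.6%, 48.1% and 42.3% (mean 48.1% ± 4.47, SD, n = 4). In Q150 HOMO mice it was 59.4%, 67.6%, 49.0% and 50.2% (mean 56.6% ± 8.71, SD, n = 4). All mutant mice of the line lay above all 5 WT mice, the lowest HET mouse only narrowly, whereas HET and HOMO mice overlapped when mice of both number series were pooled.

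In Q175 WT mice exclusion was 27.2%, 26.0%, 30.5%, 25.9% and 25.8% (mean 27.1% ± 2.01, SD, n = 5). In Q175 HET mice it was 33.0%, 33.6%, 32.3% and 37.2% (mean 34.0% ± 2.17, SD, n = 4). In Q175 HOMO mice it was 45.8%, 38.2% and 43.6% (mean 42.5% ± 3.90, SD, n = 3). The 3 genotypes of this line did not overlap, and exclusion was ordered WT, HET, HOMO.

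**Figure D2:**
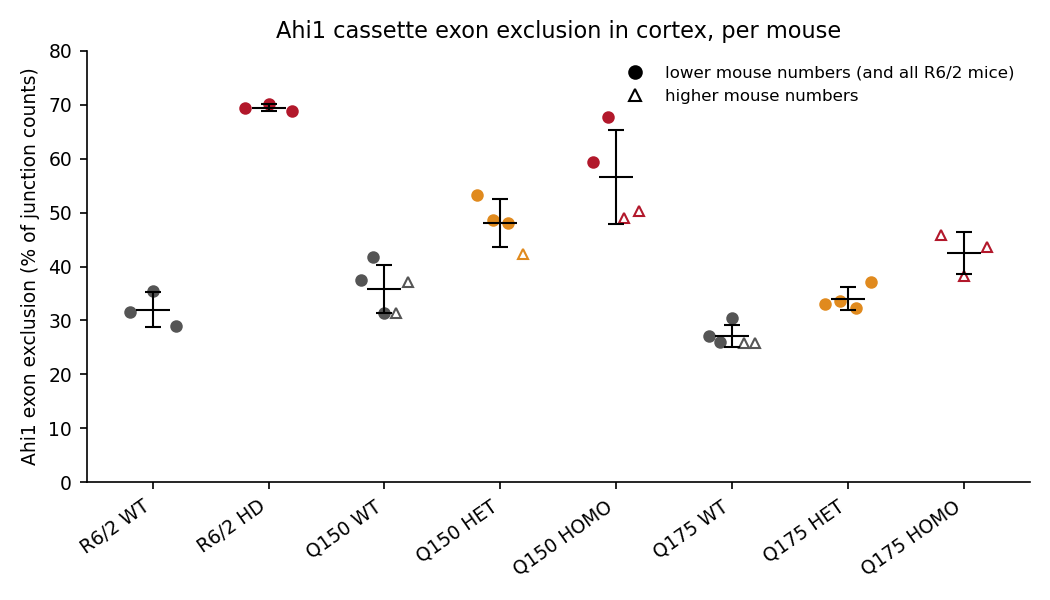
Exclusion of the Ahi1 exon (y axis, % of short plus long counts) in each of 31 mice by group, with mean and SD as bars; filled circles are mice of lower numbers and all R6/2 mice, open triangles knock-in mice of higher numbers. R6/2 HD mice sit between 68.8% and 70.1%, and each mutant group lies above its own WT mice.

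Across all groups the order of mean exclusion was Q175 WT, R6/2 WT, Q175 HET, Q150 WT, Q175 HOMO, Q150 HET, Q150 HOMO and R6/2 HD. Every pair of neighbours in this order overlapped, apart from Q150 HOMO and R6/2 HD, whose highest and lowest mice were at 67.6% and 68.8%. The percentages come from raw counts of sets that list different events, so the order across sets is open to differences between the sets.

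On the log2 scale of the short-to-long ratio, Ahi1 differed from WT by 2.27 ± 0.13 (SE) in R6/2 HD mice, a 4.83-fold higher ratio and the 9th highest of 1743 events. The groups did not overlap; nor did they, in the direction of higher exclusion, for 28.9% of all events in that comparison. In Q150 HET mice the difference was 0.73 ± 0.19, a 1.66-fold ratio, 69th of 1785 events, and 5.99% of events had such non-overlapping groups. In Q150 HOMO mice it was 1.24 ± 0.19, a 2.36-fold ratio, 37th of 1785 events, beside 14.9% of events without overlap.

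In Q175 HET mice the difference from WT was 0.48 ± 0.11, a 1.39-fold ratio, 83rd of 1839 events, and 2.23% of events did not overlap in this direction. In Q175 HOMO mice it was 1.00 ± 0.12, a 2.00-fold ratio, 18th of 1839 events, beside 9.62% without overlap. For comparison, the median event shifted by 0.18 in R6/2 HD, 0.10 and 0.19 in Q150 HET and HOMO mice, and 0.04 and 0.07 in their Q175 counterparts. HOMO differed from HET by 0.50 ± 0.20 in the Q150 line (0.62 ± 0.14 with the series of mouse numbers as a term, and 0.28 when HOMO replicate 2 was left out) and by 0.52 ± 0.13 in the Q175 line (0.67 ± 0.20 with the series as a term). Only the Q175 groups were free of overlap, as were 7.18% of all events in that comparison in the same direction. These Q175 groups also differ in series, since all HET mice are of lower and all HOMO mice of higher number.

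**Figure D3:**
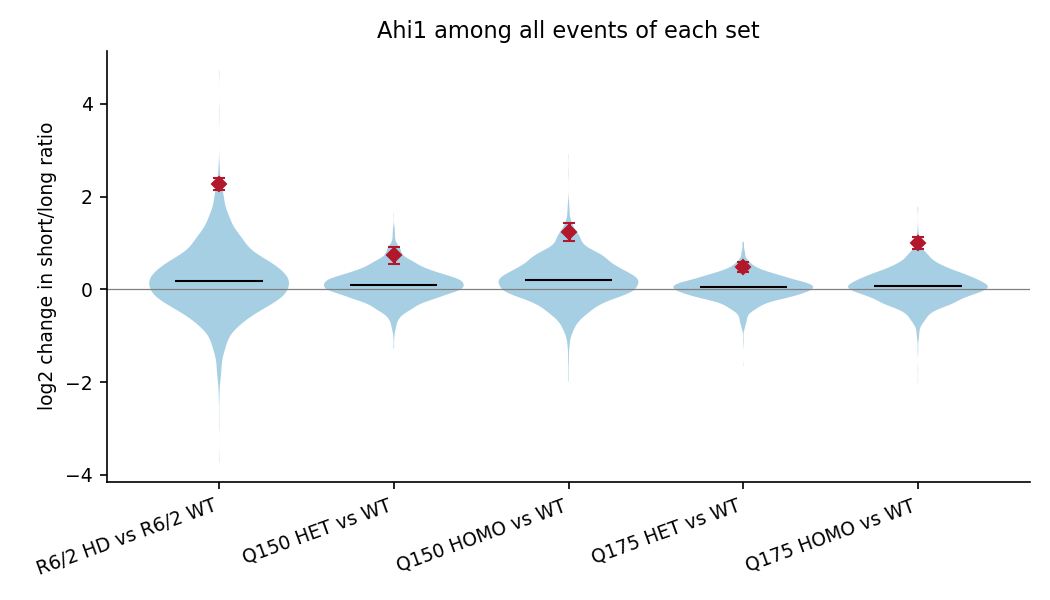
Log2 change in the short-to-long ratio (y axis) for all events of each mutant-against-WT comparison (blue, median as a black line), with Ahi1 as a red diamond and its SE. Ahi1 lies in the upper tail in all 5 comparisons, from 0.48 in Q175 HET to 2.27 in R6/2 HD mice.

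These differences are the values by which the gene stood out, and the HET and HOMO comparisons of a line share their WT mice.

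The 2 junctions differed in opposite directions between R6/2 HD and WT mice. Scaled to the same library total (CPM), the skipped junction had 168, 215 and 167 in WT and 504, 513 and 509 in HD mice, 2.79-fold higher. The kept junction had 363, 394 and 408 in WT and 222, 219 and 231 in HD mice, 0.577-fold of WT. Neither junction overlapped between the groups, as in 6.43% of all 1743 events, with the skipped junction alone higher without overlap in 35.9% and the kept junction alone lower in 21.9%. By the size of the difference Ahi1 was 62nd for the skipped and 236th for the kept junction. Their sum was 531, 609 and 575 CPM in WT and 726, 732 and 740 in HD mice, 1.28-fold higher and likewise without overlap, as were 37.3% of all events; by the size of the difference in its sum Ahi1 was 652nd of 1743 events.

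In knock-in mice the sum of both junctions overlapped between mutant and WT in every comparison, with a fold between 0.938 (Q175 HOMO) and 1.11 (Q150 HET). In Q175 HOMO mice the skipped junction had 117, 114 and 156 CPM against 76.8 to 96.8 in WT (median 86.4), and the kept junction 139, 185 and 202 against 219 to 249 (median 242). Both were free of overlap, at 1.47-fold and 0.738-fold of WT (128th and 181st of 1839 events by size). Of all events, 11.5% were free of overlap with the skipped junction higher, 7.83% with the kept junction lower and 0.598% with both. In Q175 HET mice, at 1.24-fold and 0.894-fold, both junctions overlapped with WT.

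In Q150 HOMO mice the skipped junction had 328, 422, 203 and 180 CPM against 101 to 266 in WT (median 147), and the kept junction 224, 202, 212 and 179 against 221 to 370 (median 292). The folds were 1.68 and 0.712, with overlap for both junctions over all mice. Within each of 2 series of mouse numbers neither overlapped, but in groups of 2 or 3 mice this also held for the skipped junction of 26.4% of all events and, in the direction of less, for the kept junction of 14%. In Q150 HET mice they were 1.49 and 0.898, again with overlap. Scaled instead to the median event of each mouse, the kept junction of Q150 HOMO mice was 0.671-fold of WT and did not overlap, as in 12.3% of all events, whereas the skipped junction still did. In bulk cortex, fewer cells of a type and less RNA per cell cannot be told apart.

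**Figure D4:**
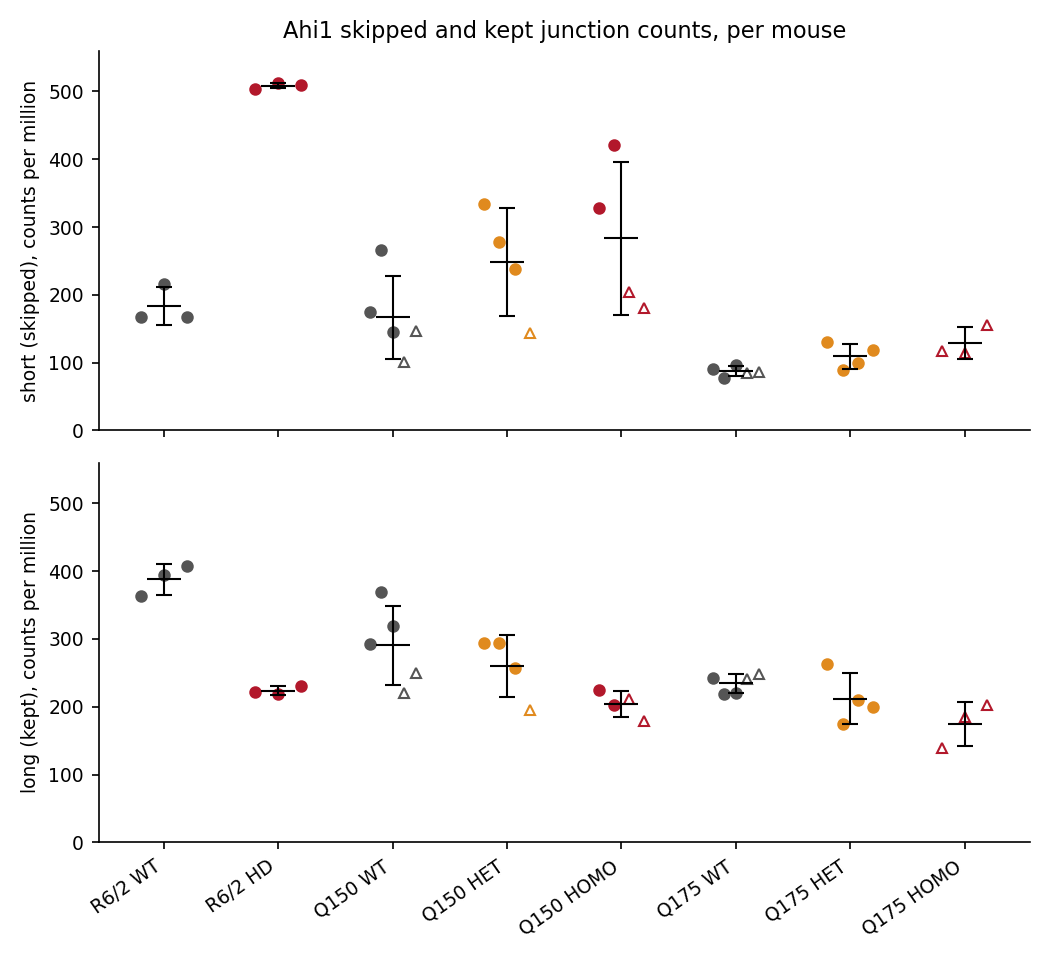
Skipped (top) and kept (bottom) junction counts of Ahi1 in CPM in each mouse, with mean and SD; symbols are as in the plot of exclusion. In R6/2 HD mice the skipped junction lies at 504 to 513 against 167 to 215 in WT, and the kept junction at 219 to 231 against 363 to 408.

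The Q150 set holds 2 series of mouse numbers, 8 mice numbered up to 400 and 5 above 400, each with WT, HET and HOMO mice. With group and series as terms, the log2 ratio of Ahi1 was 0.46 ± 0.12 (SE) below the other series in mice of higher number (limma adjusted p = 0.0070). The p-value is a description, since the gene was chosen with earlier results of these data known. Of the 1785 events, 15.2% passed for the series in either direction. The level moved with it. Short plus long counts of Ahi1 were 465.5 to 636 CPM in the 8 mice of lower number and 322 to 415 in the 5 of higher number, with no overlap, as in 3.59% of all events.

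Within each series the mutant mice were still above WT. In mice of lower number, HET exceeded WT by 0.78 (3 mice against 3) and HOMO by 1.59 (2 against 3) on the log2 scale. In mice of higher number the values were 0.50 (1 mouse against 2) and 0.92 (2 against 2). HET and HOMO mice did not overlap within either series, with exclusion of 53.2%, 48.6% and 48.1% against 59.4% and 67.6% in mice of lower number, and of 42.3% against 49.0% and 50.2% in those of higher number. The same held for 24.9% of all events in the first, 43.5% in the second and 14.8% in both, so it says little about Ahi1. Whether the genotype difference itself depends on the series was not tested. In the Q175 line, where all HET mice are of lower and all HOMO mice of higher number (1 HET mouse has different numbers in its label and its column, both of the lower series), HET exceeded WT of its own series by 0.42 (4 against 3) and HOMO by 1.09 (3 against 2). With the series as a term, HOMO exceeded HET by 0.67 ± 0.20 (SE), against 0.52 without it; WT mice are the only group in both series there, so this value rests on the difference between 3 and 2 WT mice.

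The WT mice of the 2 knock-in sets also differed. Mean exclusion was 35.8% in Q150 WT and 27.1% in Q175 WT mice, a difference of 8.76 percentage points, or 0.59 on the log2 scale. It was higher in 5 of 5 Q150 WT mice than in any Q175 WT mouse (two-sided exact permutation test, p = 0.0079, 252 arrangements, the smallest p this design gives). Among the 1731 events common to both sets, 3.7% did not overlap in either direction. In limma over these events Ahi1 passed, as did 2.31% of them (difference 0.59 ± 0.13, adjusted p = 0.0104). The same WT mice are the controls of the changes by which the gene stood out, so both p-values are descriptions. Line, age, and file set differ together between these WT mice and cannot be told apart. Their difference is larger than that between Q175 HET and Q175 WT mice: with all 10 WT mice as the control, the excess in Q175 HET mice was 0.18 rather than 0.48.

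Markers of cell types were looked at beside these values. Of 22 neuronal marker genes, 16 had events; their summed counts were 45630 to 49620 CPM in R6/2 HD and 53600 to 57650 in R6/2 WT mice, without overlap, whereas they overlapped with WT in all 4 knock-in groups. Of 7 astrocyte markers only Ndrg2 had an event, with 8831 to 9939 CPM in R6/2 HD and 17170 to 18100 in WT mice, and 9679 to 11660 in Q175 HOMO against 13280 to 16640 in Q175 WT mice. Oligodendrocyte markers (Mag and Mbp of 9 genes) overlapped in the R6/2 set. Of 7 microglial markers 0 had an event, and of 5 vascular markers only Pecam1 had. Separation of R6/2 HD from WT mice was common: the sum of both junctions was higher without overlap in 37.3% of all 1743 events. The kept junction alone was lower without overlap in 21.9% of them, and in 7.83% of all events in Q175 HOMO mice. The share of events with a lower sum was not counted, so how unusual the lower marker counts are was not determined. The part of these markers in the Ahi1 values was not tested.

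Events with a course like that of Ahi1 over the 31 mice were ranked by Pearson r of the log2 ratio minus the WT mean of the own set, among 1661 other events. The points share libraries and group differences, and r is a description. The median event had r = 0.20, and 103 events were above 0.8. The closest was an exon event of Hnrnpdl (listed as Hnrpdl, r = 0.97), an RNA-binding protein of the hnRNP D family. Another exon event of that gene is not reported here. The 4 closest also included events of Trim33 (r = 0.95), a ubiquitin ligase of TGF-beta signalling, and Agap2 (listed as Centg1, r = 0.94), a GTPase-activating protein for Arf. The most opposite was the event of Gse1 (r = -0.93).

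Exclusion in this Hnrnpdl event rose from a mean of 1.06% in R6/2 WT to 21.9% in R6/2 HD mice (limma, log2 change 4.72, the largest in that set). In Trim33 it rose from 13.0% to 25.2% and in Agap2 from 6.87% to 19.3%. In Gse1 it fell from 85.8% to 65.5%. With the group means removed, r to Ahi1 was 0.67 for Hnrnpdl, 0.65 for Trim33, 0.57 for Agap2 and -0.61 for Gse1. Over all events it had a median of 0.08 and ranged from -0.71 to 0.75. These events were picked by r over the same mice, so their values within groups are not independent support. The series of mouse numbers was not removed in that value.

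**Figure D5:**
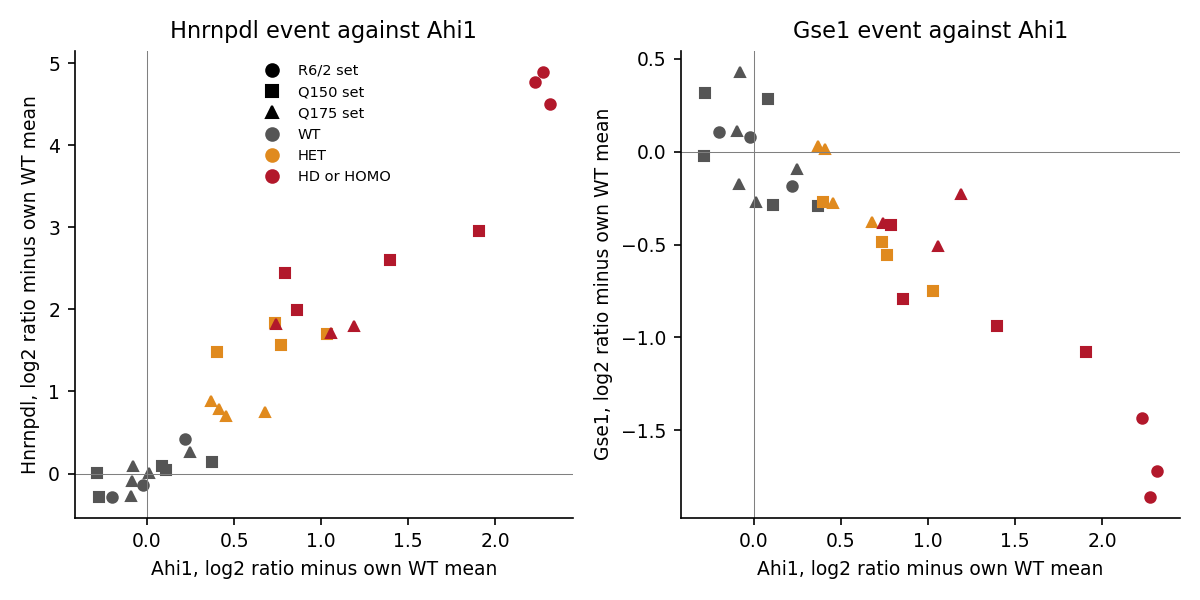
Log2 short-to-long ratio minus the WT mean of the own set for Hnrnpdl (left, y axis) and Gse1 (right, y axis) against Ahi1 (x axis) in 31 mice; shapes give the set and colours the genotype. R6/2 HD mice lie farthest from WT in both, with r = 0.97 for Hnrnpdl and -0.93 for Gse1.

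The named events of Hnrnpdl, Trim33, Agap2 and Gse1 each matched a single annotated exon of 51 to 171 nt, a multiple of 3, which is part of a coding transcript. Of the 1520 events with a single matched exon, 65.5% had a length that is a multiple of 3, which 256 is not but the 42 nt of the shorter RefSeq form is, and 107 had an exon that is in no coding transcript but in one marked for nonsense-mediated decay. This class was looked at because Ahi1 is in it. Without Ahi1 itself, exclusion in R6/2 HD mice was called higher for 17 of its 90 tested events (18.9%) and lower for 6, beside 21.1% higher and 7.46% lower among all events. In Q150 HOMO mice 15 of 99 were called higher and 4 lower, beside 19.8% and 4.09% of all events. In Q175 HOMO mice 9 of 102 were called higher and 0 lower by limma, beside 5.6% and 1.47%; at an unadjusted p under 0.05 there were 17 and 2, beside 13.5% and 5.98%. In Q150 HET mice 1 of 99 was called each way (all events 3.03% and 0.448%), and in Q175 HET mice 0 of 102 were called by limma (0.381% and 0.218%), with 12 higher and 4 lower at an unadjusted p under 0.05 (6.47% and 4.3%).

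Genes of the pathways around Ahi1 were taken from lists chosen by name. Of 51 genes of huntingtin-associated transport, 11 events of 10 genes were in the R6/2 set and 10 events of 9 genes in each knock-in set. Among R6/2 HD mice 2 of 11 events (18.2%) were called higher and 1 lower, near the 21.1% and 7.46% of all events (median change 0.23, all events 0.18), and with centring 2 and 2, beside 16.4% and 11.2%. In Q150 HOMO mice 5 of 10 were called higher and 1 lower, beside 19.8% and 4.09% of all events (median 0.27, all events 0.19). With each mouse centred on its median event, these became 2 higher and 1 lower, beside 9.52% and 8.8% of all events. In Q175 HOMO mice 3 of 10 were higher and 0 lower, beside 5.6% and 1.47% of all events, and as many with centring, beside 4.08% and 1.74% (median 0.21, all events 0.07). In HET mice 1 of 10 was called higher and 0 lower in Q150 (all events 3.03% and 0.448%), and with centring 0 higher and 1 lower (all events 1.29% and 0.952%). The single call was lost when WT replicate 3 or 5 or HET replicate 1 was left out. In Q175 HET mice 0 of 10 were called by limma (all events 0.381% and 0.218%), and 2 were higher and 0 lower at an unadjusted p under 0.05, beside 6.47% and 4.3% of all events.

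The sorting receptor Sort1, which carries neurotrophins and lysosomal proteins, had higher exclusion in R6/2 HD mice by 1.02 ± 0.14 (adjusted p = 0.00015), in Q150 HET by 0.53 ± 0.13 (0.023), in Q150 HOMO by 0.88 ± 0.13 (4.2e-05) and in Q175 HOMO mice by 0.57 ± 0.10 (0.00011), all from limma with SE. With centring the Q150 HET call was lost (0.43, limma adjusted p = 0.087). In percent, it went from 94.99% to 97.5% in R6/2 mice. Itpr1, the calcium release channel that binds Hap1, rose by 1.09 ± 0.26 in R6/2 HD (limma adjusted p = 0.0083), by 0.78 ± 0.16 in Q150 HOMO (0.0014) and by 0.69 ± 0.16 in Q175 HOMO mice (0.0037). Its mean exclusion was 4.09% in R6/2 WT and 8.01% in R6/2 HD mice.

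Klc1, a kinesin light chain, has an alternative 5′ splice site, for which the short form stands in place of exclusion. The short form rose in Q150 HOMO mice by 0.37 ± 0.11 (limma adjusted p = 0.019) and in Q175 HOMO mice by 0.52 ± 0.09 (0.00013), where its share was 49.9% against 41.0% in WT. With centring the Q150 HOMO value was 0.17 and did not pass (limma adjusted p = 0.34). In R6/2 HD mice the difference was 0.39 ± 0.15 (0.071). Trio, a guanine nucleotide exchange factor, fell by 0.51 in the short form of its 5′ splice site in Q150 HOMO mice (SE 0.11, limma adjusted p = 0.0025), and its value in Q175 HOMO mice was 0.01 ± 0.13.

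Of 115 cilium and Joubert syndrome genes, 8 had an event in each set. For R6/2 HD mice 1 was called higher and 1 lower by limma, beside 21.1% and 7.46% of all events. In the 4 knock-in groups 0 of 8 were called. All events called higher and lower were 3.03% and 0.448% in Q150 HET, 19.8% and 4.09% in Q150 HOMO, 0.381% and 0.218% in Q175 HET, and 5.6% and 1.47% in Q175 HOMO mice, and at the shares of the HET groups 8 events are too few for a call to be likely. At an unadjusted p under 0.05, 0 events were higher and 0 lower in Q150 HET mice, beside 14.1% and 4.03% of all events. Of the 8, 2 were higher and 0 lower in Q150 HOMO mice, beside 28.1% and 7.28%. In Q175 HET mice there was 1 each way, beside 6.47% and 4.3%, and in Q175 HOMO mice 0 were higher and 1 lower, beside 13.5% and 5.98%. The event of Ccp110 (listed as 6330503K22Rik), which caps centrioles, rose by 0.69 ± 0.18 in R6/2 HD mice (limma adjusted p = 0.014), from 41.5% to 53.3%. That of the centrosomal Cspp1, itself a Joubert syndrome gene, fell by 1.32 on the log2 scale, to 11.9% from 25.2% (SE 0.27, limma adjusted p = 0.0027).

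Of 53 genes of Wnt and beta-catenin signalling, 14 had events, 19 or 20 in a set. In R6/2 HD mice 4 of 19 (21.1%) were called higher and 1 lower, at the share of all events (21.1% and 7.46%), and with centring 4 and 3, beside 16.4% and 11.2%. In Q150 HOMO mice 6 of 20 were higher and 1 lower, beside 19.8% and 4.09% of all events, and with centring 1 and 1, beside 9.52% and 8.8%. In Q175 HOMO mice 1 of 19 was called each way, beside 5.6% and 1.47%. In Q150 HET mice 0 of 20 were called by limma (all events 3.03% and 0.448%), and 2 were higher and 1 lower at an unadjusted p under 0.05 (all events 14.1% and 4.03%). In Q175 HET mice 0 of 19 were called (all events 0.381% and 0.218%), and 0 were higher and 1 lower at that unadjusted p (all events 6.47% and 4.3%). Macf1, a cytoskeletal linker that also carries Axin, rose by 1.98 ± 0.23 in R6/2 HD mice (limma adjusted p = 5.8e-05), 0.94 ± 0.20 in the Q150 homozygotes (0.0014) and 0.48 ± 0.13 in those of the Q175 line (0.015). Dvl1, which relays the signal from Frizzled receptors, rose in R6/2 HD mice from 53.9% to 71.0% (1.07 ± 0.12, limma adjusted p = 3.5e-05), and its values in the 4 knock-in groups were between -0.17 and 0.22 and did not pass.

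The kinases of beta-catenin also had events. For Csnk1d exclusion rose from 10.1% to 22.0% in R6/2 HD mice (1.35 ± 0.26, limma adjusted p = 0.0020) and from 11.2% to 15.4% in Q150 HOMO mice (0.043). For Gsk3b it rose from 39.1% to 46.9% in R6/2 HD mice (0.46 ± 0.09, limma adjusted p = 0.0029) and from 37.6% to 44.0% in Q150 HOMO mice (0.0022), and was 38.7% in Q175 HOMO against 39.8% in Q175 WT mice. With centring neither call in Q150 HOMO mice passed (limma, 0.35 with adjusted p = 0.23 for Csnk1d and 0.18 with adjusted p = 0.14 for Gsk3b). Both in R6/2 HD mice did, that of Gsk3b only narrowly (limma, 1.21 with adjusted p = 0.0028 for Csnk1d and 0.32 with adjusted p = 0.0497 for Gsk3b).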

How the data were processed

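The authors prepared RASL-seq libraries of 31 mice from cortical total RNA (oligo(dT) selection, ligation, PCR; no molecular identifiers stated). The deposited values, recorded as other because of commas used as digit separators, are per the file headers the raw counts of the short and the long junction per event; the commas were removed. The aligner is not given in the sources used here, and mm10 is named in the submitters' processing notes. The lowest count was 4, and whether junctions with fewer counts had been filtered out is not stated in the sources used here. Groups came from titles (R6/2) and genotype (knock-in). All knock-in titles say Q150 and the genotype opens with Q175 for all mutants, so the line was taken from the glutamine numbers. The methods count 1 Q150 HOMO mouse fewer and 1 Q175 HOMO mouse more than the labels, whereas a supplementary figure legend of the paper gives the same numbers as the labels.

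The log2 of (short + 0.5) / (long + 0.5) was fitted per set by limma (3.58.1, R 4.3.3) with group means, a variance trend on the counts and Benjamini-Hochberg adjustment over all events of the set; the threshold was 0.05. A minimum mean of 10 counts removed 0 events. The functions were tested on simulated data with 200 changed events. Exons were matched to GENCODE vM21 on GRCm38 by span, and sequence was read with samtools 1.23.1. Of 1559 symbols, 1513 matched the RefSeq table, 228 under a newer name.

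The gene and all lists were chosen with earlier results of these data known. Named events are those of Ahi1 and Hap1, the 4 most like and 2 most opposite events (some events so picked are not reported here), and up to 4 called events per list with the smallest adjusted p. Separate animals are labelled as replicates. The paper calls the R6/2 controls littermates, but which mice shared a litter is not given. Alternatives were another pseudocount, centring, a quasi-binomial model, no trend, only the 2 groups compared, the series as a block, all 10 knock-in WT mice, other count minimums and leaving out each mouse.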

Additional observations from a re-analysis of the deposited data

How the results depend on the processing

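The changes of Ahi1 exclusion between groups kept their direction under every alternative run, and 112 of 114 values of Ahi1 exclusion moved by less than the spread between mice or stayed on their side of the threshold. With all 10 knock-in WT mice, the change fell to 0.18 in Q175 HET and to 0.70 in Q175 HOMO mice, and it went up to 1.03 in Q150 HET and 1.53 in Q150 HOMO mice. Leaving out 1 mouse at a time gave 2.17 to 2.38 in R6/2 HD, 0.63 to 0.85 in Q150 HET, 1.01 to 1.39 in Q150 HOMO, 0.41 to 0.54 in Q175 HET, 0.90 to 1.12 in Q175 HOMO, 0.28 to 0.65 for Q150 HOMO against HET, 0.42 to 0.65 for Q175 HOMO against HET and 0.49 to 0.66 for Q150 WT against Q175 WT mice. The WT comparison by limma was added after seeing the data. No paired analysis was possible because mouse numbers do not join mice of different groups.

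For the sum of Ahi1 junctions (log2 CPM), the R6/2 value of 0.36 was 0.29 relative to the median event, 1.48 for the short count alone and -0.79 for the long count alone. Short alone gave 0.58 in Q150 HET, 0.75 in Q150 HOMO, 0.32 in Q175 HET, 0.56 in Q175 HOMO and 0.24 for Q175 HOMO against HET; long alone gave -0.49 in Q150 HOMO, -0.44 in Q175 HOMO and -0.28 for Q175 HOMO against HET. These differ by construction. Leaving out 1 mouse, the sum ranged from 0.31 to 0.41 in R6/2 HD, 0.03 to 0.33 in Q150 HET, -0.04 to 0.23 in Q150 HOMO, -0.12 to 0.07 in Q175 HET, -0.22 to 0.03 in Q175 HOMO, -0.24 to 0.08 for Q150 HOMO against HET and -0.20 to 0.04 for Q175 HOMO against HET.

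The 3 gene lists together had 13 called events in Q150 HOMO mice and 5 after centring on the median event. Leaving out 1 mouse gave 9 to 12 there, 9 to 11 in R6/2 HD, 0 to 1 in Q150 HET (0 when WT replicate 3 or 5 or HET replicate 1 was left out), 0 in all in Q175 HET and 3 to 5 in Q175 HOMO (3 without HOMO replicate 2). The counts of 1109 to 3209 behind Ahi1 leave intervals of up to 5.71 percentage points in a mouse.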
